A study of Mus musculus with 12 samples.

Results

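Genes that mark the capillary endothelial cells of the alveolus were followed in mouse lung after irradiation. They comprise 4 aerocyte genes (Car4, Apln, Fibin and Tbx2) and 5 general capillary genes (Aplnr, Gpihbp1, Plvap, Cd93 and Glp1r), chosen by symbol, and all 9 were found among the 23238 gene symbols of the count tables. RNA was sequenced from 12 lung samples in 4 groups of 3, one without irradiation (NoIR) and the others taken 8, 11 and 14 d after irradiation (IR_8d, IR_11d and IR_14d), and the series description places the irradiated samples within the irradiated areas. The sources used here do not give strain, genotype, age, sex, radiation dose or the part of the lung used for the unirradiated samples. Replicates carry numbers, and nothing says that each came from its own mouse, so a p-value here reflects only the spread among samples, part of which may be technical.

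The alveolar capillary bed is built from a pair of endothelial cell types. Aerocytes are large, thin cells that lie against the gas-exchange surface, and general capillary cells are smaller, line the thicker regions and act as progenitors that renew both types. Aerocytes make the peptide apelin (Apln) and general capillary cells carry its receptor (Aplnr), so the types form a ligand and receptor pair. General capillary cells also display Gpihbp1, which anchors lipoprotein lipase at the vessel lumen, and Plvap, which forms the diaphragms of caveolae and fenestrae.

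All 5 general capillary genes fell after irradiation at 8, 11 and 14 d, whereas the aerocyte genes divided. Car4, Fibin and Tbx2 fell, and Apln rose to 2.80-fold its unirradiated level at 8 d and then came down towards it. The falls had different courses. Fibin and Gpihbp1 were already at 20.3% and 21.7% of the unirradiated level at 8 d. Car4 stood at 65.6% and 65.9% at 8 and 11 d and at 17.1% at 14 d. Glp1r had the lowest final level of the members, 7.60% at 14 d, and Cd93 the smallest fall among those that fell, to 52.5%. Levels are given below in CPM, which are counts scaled by library size. A gene was called where edgeR's quasi-likelihood test gave a Benjamini-Hochberg adjusted p under 0.05 over the 16484 genes tested (n = 3 per group). In bulk tissue, fewer cells of a type, less RNA per cell and a larger share of RNA from other cells cannot be told apart.

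Libraries held 19624554 to 27765751 counts, so each member rests on at least 87 counts per library. All 12 pan-endothelial genes and all 6 epithelial genes used to check the tissue (Sftpc, Sftpb, Ager, Hopx, Scgb1a1 and Foxj1) were detected in every group. The geometric mean of the pan-endothelial genes lay between 180.2 and 192.0 CPM in unirradiated lung, between 134.0 and 149.8 CPM at 8 d, between 86.78 and 126.1 CPM at 11 d and between 58.44 and 68.88 CPM at 14 d. The lowest 11 d value belonged to replicate 1, in which every member except Aplnr also had its lowest 11 d level.

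RefSeq promoter windows (250 bases before to 50 bases after the start site, GRCm38.p6) matched 4 of the 9 members, Car4, Apln, Fibin and Glp1r. Those of Car4 and Apln are shown because these aerocyte genes moved in opposite directions, and that of Glp1r because it had the lowest level at 14 d. They lie at chr11:84957504-84957803 (plus strand), chrX:48034804-48035103 (minus strand) and chr17:30901617-30901916 (plus strand). Capitals mark matches on either strand to any of 5 motifs. The TATA box was searched as TATAAA, and the core of the hypoxia response element was searched in its ACGTG form only. For the ETS factors of endothelium the letters were CCGGAA, for T-box factors such as Tbx2 they were GGTGTGA, and for SOX factors they were ATTGTT.
Car4: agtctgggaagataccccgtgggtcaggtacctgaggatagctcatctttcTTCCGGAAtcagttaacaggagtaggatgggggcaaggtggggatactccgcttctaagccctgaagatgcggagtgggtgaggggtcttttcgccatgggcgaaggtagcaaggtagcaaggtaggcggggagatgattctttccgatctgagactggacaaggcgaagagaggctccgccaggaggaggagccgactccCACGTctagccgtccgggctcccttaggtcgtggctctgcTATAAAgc
Apln: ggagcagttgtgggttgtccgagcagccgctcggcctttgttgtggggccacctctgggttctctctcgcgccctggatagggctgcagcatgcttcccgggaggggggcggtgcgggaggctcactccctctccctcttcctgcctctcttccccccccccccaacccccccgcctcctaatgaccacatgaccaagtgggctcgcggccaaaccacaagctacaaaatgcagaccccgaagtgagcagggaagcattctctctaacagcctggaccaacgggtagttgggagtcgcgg
Glp1r: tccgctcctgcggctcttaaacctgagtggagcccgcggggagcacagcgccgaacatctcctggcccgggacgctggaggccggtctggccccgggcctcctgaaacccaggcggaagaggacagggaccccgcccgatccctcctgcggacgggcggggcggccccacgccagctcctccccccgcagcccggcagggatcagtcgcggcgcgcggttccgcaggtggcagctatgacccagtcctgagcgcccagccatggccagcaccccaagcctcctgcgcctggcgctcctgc

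The Car4 window holds ETS matches on both strands that overlap each other, at bases 52 to 57 and 54 to 59, one ACGTG match on the reverse strand at bases 253 to 257, and TATAAA at bases 293 to 298, which is after the annotated start. The windows of Apln, Fibin and Glp1r hold none of the 5 in the letters searched. Among all 32851 windows of this length, 14.9% hold the ETS letters, 19.6% the letters ACGTG, 13.6% the TATA letters, 10.7% the SOX letters and 3.98% the T-box letters. Their G and C content was 57.3% for Car4, 64.0% for Apln, 56.3% for Fibin and 73.7% for Glp1r, whose window has 29 CpG dinucleotides against 15 each in Car4 and Apln and 11 in Fibin. These matches are a description of the letters and not of bound sites.

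**Figure D1:**
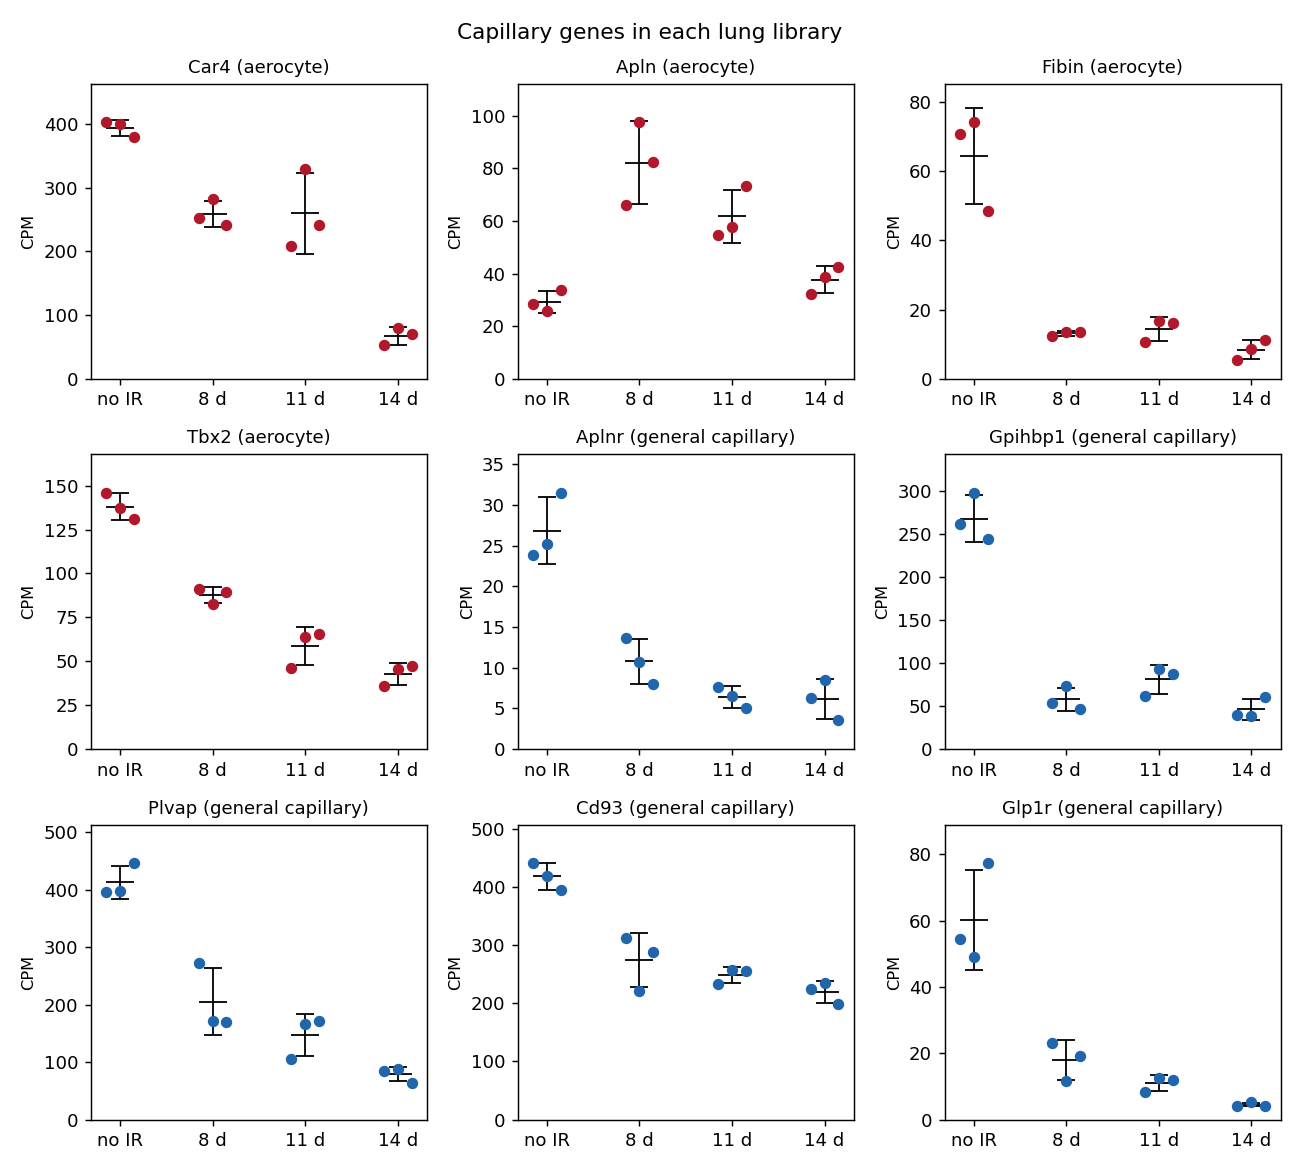
Level of each gene in CPM (linear axis from 0) in the 3 libraries of each group; points are libraries, bars the mean ± SD, red aerocyte and blue general capillary genes. Apln is highest at 8 d (66.1 to 97.6 CPM), Car4 falls late (52.2 to 79.8 CPM at 14 d), and Gpihbp1 and Fibin are low from 8 d on.

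The ligand of the pair, Apln (mm10 chromosome X, 48025146 to 48034853, minus strand), had 28.4, 25.7 and 33.9 CPM in the 3 unirradiated libraries. It had 66.1, 97.6 and 82.6 CPM at 8 d, 54.5, 57.6 and 73.2 CPM at 11 d, and 32.1, 38.5 and 42.4 CPM at 14 d. Every 8 d and 11 d library lay above every unirradiated one, and the 14 d libraries overlapped them. The log2 change was 1.48 at 8 d (SE 0.17, adjusted p = 4.9e-05) and 1.07 at 11 d (SE 0.17, adjusted p = 0.00026), where 13% and 19.4% of all genes tested were called higher. At 14 d it was 0.36 (SE 0.17, adjusted p = 0.12), which did not pass (20% of all genes were called higher), and the difference of 14 d from 8 d was -1.12 (SE 0.17, adjusted p = 0.00066).

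The receptor Aplnr, a G protein-coupled receptor (chromosome 2, 85136225 to 85139923, plus strand), had 23.8, 25.2 and 31.5 CPM without irradiation. It had 13.6, 10.7 and 8.00 CPM at 8 d, 7.69, 6.47 and 5.03 at 11 d, and 6.25, 8.49 and 3.63 at 14 d. All irradiated libraries lay below all unirradiated ones. The log2 change was -1.32 at 8 d (SE 0.26, adjusted p = 0.0024), -2.06 at 11 d (SE 0.27, adjusted p = 5.3e-05) and -2.13 at 14 d (SE 0.27, adjusted p = 2.6e-05). Because the ligand and receptor moved apart, the count of Apln divided by that of Aplnr in the same library lay between 1.02 and 1.19 in unirradiated lung, between 4.87 and 10.3 at 8 d, between 7.09 and 14.5 at 11 d and between 4.53 and 11.7 at 14 d. This ratio was chosen after the values were seen and was not tested.

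Other components of apelin signalling were read beside the pair. Mme, the peptidase neprilysin, which cleaves apelin, had a log2 change of -0.37 at 8 d that did not pass. It was called lower at 11 d (-0.40, SE 0.15, adjusted p = 0.046) and at 14 d (-0.74, SE 0.15, adjusted p = 0.001). Klkb1 had under 1 CPM in every group mean and was not called, and Apela, the second ligand of the receptor, had too few counts to be tested.

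Car4 encodes a carbonic anhydrase held on the cell surface (chromosome 11, 84957786 to 84966044, plus strand), which speeds the exchange of carbon dioxide and bicarbonate. It had 403, 400 and 380 CPM without irradiation, 252, 282 and 242 at 8 d, 208, 330 and 241 at 11 d, and 52.2, 79.8 and 70.7 at 14 d. The groups did not overlap with the unirradiated one at any time, and the 14 d libraries also lay below all 8 d and 11 d libraries. The log2 change was -0.61 at 8 d (SE 0.18, adjusted p = 0.022), -0.60 at 11 d (SE 0.18, adjusted p = 0.015) and -2.54 at 14 d (SE 0.19, adjusted p = 3.3e-07). The step from 11 d to 14 d was -1.94 (SE 0.18, adjusted p = 0.00027), in a comparison in which 0.983% of all genes were called lower, and 8 d and 11 d differed by 0.01 (SE 0.18, adjusted p = 0.99). The 8 d call was lost without unirradiated replicate 1 (adjusted p = 0.067) or 2 (0.062) and without 8 d replicate 1 (0.056) or 3 (0.075), with log2 changes of -0.59, -0.60, -0.59 and -0.56. The 11 d call was lost without 11 d replicate 1 (-0.47, adjusted p = 0.079) or 3 (-0.55, adjusted p = 0.059).

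Fibin, a secreted factor named for its role in fin bud initiation in zebrafish (chromosome 2, 110360917 to 110363183, minus strand), had 70.7, 74.2 and 48.6 CPM without irradiation. It had 12.2, 13.6 and 13.5 CPM at 8 d, 10.5, 16.7 and 16 at 11 d, and 5.49, 8.52 and 11.1 at 14 d. The lowest unirradiated library was above every irradiated one. Its log2 changes were -2.30 at 8 d (SE 0.24, adjusted p = 2.3e-05), -2.16 at 11 d (SE 0.24, adjusted p = 1.3e-05) and -2.95 at 14 d (SE 0.25, adjusted p = 8.9e-07). No difference between irradiated times was called for Fibin, the largest being -0.78 from 11 d to 14 d (SE 0.24, adjusted p = 0.12).

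Tbx2, a T-box transcription factor (chromosome 11, 85832551 to 85841948, plus strand), had 146, 137 and 131 CPM without irradiation. It had 91.2, 82.4 and 89.6 CPM at 8 d, 46.0, 64.1 and 65.3 at 11 d, and 35.8, 45.4 and 47.2 at 14 d. All irradiated libraries lay below the unirradiated ones, and all 8 d libraries above those of 11 d and 14 d. The log2 changes against unirradiated lung were -0.65 (SE 0.15, adjusted p = 0.0051), -1.24 (SE 0.15, adjusted p = 2.2e-05) and -1.69 (SE 0.15, adjusted p = 1.2e-06) in order of time. The difference of 14 d from 8 d was -1.03 (SE 0.15, adjusted p = 0.00044). Tbx2 is also expressed in lung mesenchyme, and markers of smooth muscle and pericytes, summed over 6 genes, lay between 520 and 620 CPM in unirradiated lung, between 364 and 560 CPM at 8 d, between 292 and 414 CPM at 11 d and between 254 and 318 CPM at 14 d, with 1, 4 and 5 of the 6 called lower and none higher. Fibroblast markers had 1760 to 1820 CPM without irradiation and 712 to 882 at 14 d, with 4 of 6 lower and 1, Col1a1, higher at 14 d. Among all genes tested, 10.6%, 17.8% and 18.9% were called lower at 8, 11 and 14 d, and 20% higher at 14 d. The single calls (1 of 6) are near those shares. The part of mesenchymal cells in the fall of Tbx2 was not tested.

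Gpihbp1 (chromosome 15, 75596628 to 75599481, plus strand) had 261, 298 and 244 CPM without irradiation. It had 54.2, 73.1 and 47.1 CPM at 8 d, 62.0, 93.1 and 87.7 at 11 d, and 39.8, 38.4 and 60.3 at 14 d. The lowest unirradiated library was above all 9 irradiated ones, which overlapped between 8 d and each later time. The log2 changes were -2.20 (SE 0.21, adjusted p = 1.1e-05), -1.72 (SE 0.21, adjusted p = 2.7e-05) and -2.53 (SE 0.22, adjusted p = 9.3e-07) at 8, 11 and 14 d, and no difference between irradiated times was called. The count of Car4 divided by that of Gpihbp1 in the same library lay between 1.34 and 1.56 in unirradiated lung, between 3.86 and 5.13 at 8 d, between 2.75 and 3.55 at 11 d and between 1.17 and 2.08 at 14 d. The ratio was thus above all unirradiated values at 8 d and 11 d and overlapped them at 14 d, and it was chosen after the values were seen and not tested.

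The genes that work with Gpihbp1 in fat uptake went several ways. Cd36, a fatty acid transporter of capillaries and macrophages, fell from 1540 to 577 CPM at 8 d (log2 change -1.42, SE 0.15, adjusted p = 3e-05) and stood at 494 CPM at 14 d (-1.64, SE 0.16, adjusted p = 2e-06). Lpl, the lipase that Gpihbp1 binds, had 243 CPM without irradiation and 208 CPM at 8 d, which did not pass, and rose to 347 CPM at 14 d (log2 change 0.52, SE 0.15, adjusted p = 0.012). Fabp5, a fatty acid-binding protein also made by macrophages, rose from 257 to 1320 CPM at 14 d (2.36, SE 0.30, adjusted p = 2e-05). Pparg, a transcription factor of lipid metabolism, fell at 8 d (-0.94, SE 0.15, adjusted p = 0.00056) and was not called at 11 or 14 d. Of the 8 genes of capillary lipolysis and fatty acid uptake, 2 fell and none rose at 8 d, 1 fell and 1 rose at 11 d, and 1 fell and 3 rose at 14 d. Over all genes, 10.6%, 17.8% and 18.9% were called lower and 13%, 19.4% and 20% higher. The counts at 11 d and the 1 fall at 14 d thus do not exceed the share of all genes. Medians of the list were -0.39, 0.04 and 0.12 beside medians over all genes of 0.01, -0.01 and 0.01.

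Plvap (chromosome 8, 71497765 to 71511752, minus strand) had 395, 398 and 446 CPM without irradiation. It had 272, 172 and 170 CPM at 8 d, 106, 166 and 172 at 11 d, and 84.8, 88.0 and 64.5 at 14 d. All irradiated libraries lay below the unirradiated ones, and all 14 d libraries below those of 8 d and 11 d. The log2 changes were -1.02 (SE 0.21, adjusted p = 0.0031), -1.48 (SE 0.21, adjusted p = 0.00011) and -2.39 (SE 0.22, adjusted p = 1.6e-06) at 8, 11 and 14 d. The difference of 14 d from 8 d was -1.37 (SE 0.21, adjusted p = 0.00073). That of 14 d from 11 d was -0.90 (SE 0.21, adjusted p = 0.045), and this call was lost at an adjusted p between 0.055 and 0.22 in 9 of the 12 fits that left out 1 library (each unirradiated and each 14 d library, 11 d replicates 2 and 3, and 8 d replicate 3). It was also lost with a replicate block (-0.91, adjusted p = 0.06), with library size alone (-0.86, adjusted p = 0.059) and in the fit of only the groups compared (-0.90, adjusted p = 0.05).

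Genes of the caveola, the membrane pit whose diaphragm Plvap forms, fell with it. Of 6 genes 4 fell at 8 d, 5 at 11 d and all 6 at 14 d, and none rose, with medians of -0.62, -0.83 and -1.44, where 10.6%, 17.8% and 18.9% of all genes were called lower. Cav1, the main coat protein, fell from 1150 CPM to 656 at 8 d (log2 change -0.82, SE 0.14, adjusted p = 0.00089) and 314 at 14 d (-1.88, SE 0.15, adjusted p = 4.6e-07). Cav2 fell from 310 to 116 CPM at 14 d (-1.42, SE 0.15, adjusted p = 3.5e-06). The coat gene Cavin2, listed under its older symbol Sdpr, fell from 990 to 250 CPM at 14 d (-1.98, SE 0.16, adjusted p = 6.7e-07). Caveolae are also abundant in alveolar type 1 cells. Their gene Ager was not called at 8 d (-0.44, SE 0.18, adjusted p = 0.086). It fell from 3590 to 1800 CPM at 14 d (adjusted p = 0.00043). The 6 epithelial genes, Ager among them, summed to 41300 to 56700 CPM without irradiation and 19300 to 22200 CPM at 14 d. Of these 6 genes, 5 were called lower at 14 d. Most of the unirradiated sum came from Sftpc (21100 CPM) and Scgb1a1 (18900 CPM), so it says little about Ager. The part of type 1 cells in the fall of the caveola genes was not tested.

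Cd93, a membrane lectin of endothelium (chromosome 2, 148436640 to 148443563, minus strand), had 441, 418 and 395 CPM without irradiation. It had 312, 222 and 288 CPM at 8 d, 233, 257 and 255 at 11 d, and 224, 235 and 199 at 14 d. The highest irradiated library was below the lowest unirradiated one, and the irradiated times overlapped each other. The log2 changes were -0.61 (SE 0.14, adjusted p = 0.005), -0.75 (SE 0.14, adjusted p = 0.00065) and -0.93 (SE 0.14, adjusted p = 8.5e-05), and no difference between irradiated times was called. Cd93 is also made by myeloid cells. The 8 monocyte and neutrophil markers summed to between 83.1 and 137 CPM in unirradiated lung, between 254 and 455 CPM at 8 d, between 411 and 757 CPM at 11 d and between 504 and 623 CPM at 14 d. Of these 8 markers 7, 7 and 6 were called higher and none lower, where 13%, 19.4% and 20% of all genes were called higher. The part of myeloid cells in the level of Cd93 was not tested.

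The extracellular ligand of Cd93 went the other way. Mmrn2, an endothelial matrix protein that binds Cd93, rose from 54.1 to 192 CPM at 8 d (log2 change 1.83, SE 0.17, adjusted p = 8.6e-06), 122 at 11 d (1.17, SE 0.17, adjusted p = 0.00011) and 82.5 at 14 d (0.61, SE 0.17, adjusted p = 0.01). Igfbp7, a secreted protein that also binds Cd93, had 532 CPM without irradiation and was called lower at 14 d only, at 403 CPM (-0.40, SE 0.14, adjusted p = 0.03). Dag1 was called lower at 11 d only (-0.70, SE 0.24, adjusted p = 0.032). Mmrn2 thus peaked at 8 d among the group means, as Apln did, and the difference of 14 d from 8 d was -1.22 and was called for Mmrn2.

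Glp1r, the receptor for glucagon-like peptide 1 (chromosome 17, 30901817 to 30940791, plus strand), had 54.3, 48.9 and 77.3 CPM without irradiation. It had 23.2, 11.5 and 19.2 CPM at 8 d, 8.24, 12.7 and 11.9 at 11 d, and 4.23, 5.24 and 4.22 at 14 d. All irradiated libraries lay below the unirradiated ones, and the 14 d libraries, with 94, 139 and 101 counts, below all others. The log2 changes were -1.74 (SE 0.25, adjusted p = 0.00019), -2.46 (SE 0.25, adjusted p = 7.1e-06) and -3.72 (SE 0.27, adjusted p = 3.3e-07) at 8, 11 and 14 d. The last is a level 13.2-fold lower than without irradiation. The difference of 14 d from 8 d was -1.97 (SE 0.26, adjusted p = 0.00028). That of 14 d from 11 d was -1.25 (SE 0.26, adjusted p = 0.03), and this call was lost without 11 d replicate 2 (adjusted p = 0.17) or 3 (0.13) and without 14 d replicate 1 (0.15), 2 (0.067) or 3 (0.067), and with voom (-1.22, adjusted p = 0.063).

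**Figure D2:**
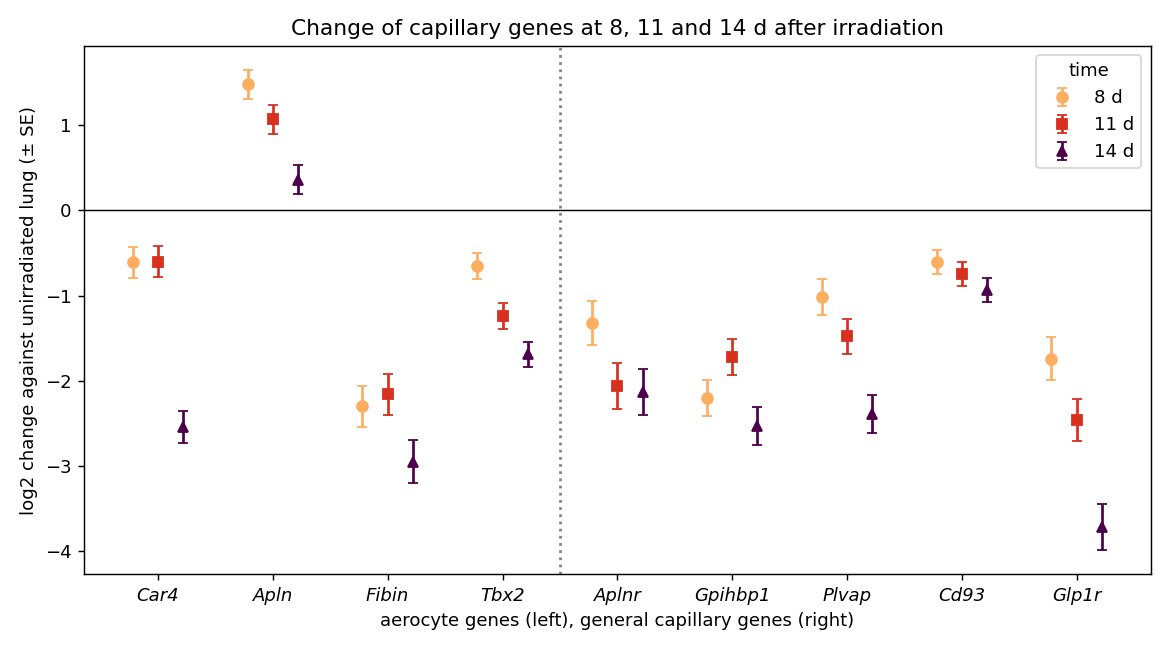
Log2 change of each gene against unirradiated lung at 8, 11 and 14 d (edgeR estimate, bars ± SE, 3 libraries per group), aerocyte genes left of the dotted line. Apln is the only one of the 9 above 0, and the step of Car4 from -0.60 at 11 d to -2.54 at 14 d is larger than that of any other member.

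Set side by side, 3 of 4 aerocyte and 5 of 5 general capillary genes were lower at each time, and 1 aerocyte gene was higher at 8 d and 11 d. Among all genes tested, 10.6%, 17.8% and 18.9% were called lower at 8, 11 and 14 d. The share called higher was 13% at 8 d and 19.4% at 11 d, so a count of 1 in 4 is near the share at 11 d. The median log2 change was -0.63, -0.92 and -2.12 for aerocyte genes and -1.32, -1.72 and -2.39 for general capillary genes at 8, 11 and 14 d, beside 0.01, -0.01 and 0.01 over all genes tested. The ranges of the sets overlapped at every time (-2.30 to 1.48 and -2.20 to -0.61 at 8 d), so the sets did not separate from each other, and no test between them was made. The 3 comparisons share the unirradiated libraries. Groups did not overlap with unirradiated lung for all 9 genes at 8 d and 11 d and for 8 at 14 d, which was the case for 38.3%, 54.9% and 50.8% of all genes.

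Between irradiated times, none of the 9 genes was called from 8 d to 11 d, where 2.14% of all genes were called (edgeR). At an unadjusted p below 0.05, 6 of the 9 passed, as did 15.8% of all genes. Tbx2 was called lower by DESeq2 (log2 change -0.58, adjusted p = 0.0069), with library size alone (adjusted p = 0.041) and with no filter (0.047). Without 8 d replicate 2, Tbx2 (-0.63, adjusted p = 0.048) and Glp1r (-0.96, adjusted p = 0.032) were called lower by edgeR. From 11 d to 14 d, Car4, Plvap and Glp1r were lower, where 0.983% of all genes were called lower. The calls of Plvap and Glp1r were lost in 9 and 5 of the 12 fits that left out 1 library. Apln (-0.71, adjusted p = 0.052), Fibin (-0.78, 0.12), Tbx2 (-0.45, 0.15) and Gpihbp1 (-0.81, 0.067) were not called. All 4 were called lower without 11 d replicate 1, the 11 d library with the lowest panel level (-0.80, -0.97, -0.60 and -0.97, adjusted p = 0.032, 0.044, 0.028 and 0.023). Apln was also called without 8 d replicate 1 (adjusted p = 0.036) or 2 (0.03), and Gpihbp1 without 8 d replicate 2 (0.035) or 14 d replicate 3 (0.027). DESeq2 called Apln (adjusted p = 0.0074), Fibin (0.043) and Gpihbp1 (0.01) lower, edgeR with no filter called Apln (0.04) and Gpihbp1 (0.046), and the fit with a replicate block called Apln (0.027). From 8 d to 14 d, 5 of 9 were lower, namely Car4, Apln, Tbx2, Plvap and Glp1r, where 7.29% of all genes were called lower. Fibin, Aplnr, Gpihbp1 and Cd93 were not called from 8 d to 14 d, with log2 changes of -0.65, -0.81, -0.33 and -0.32. Fibin was called without 14 d replicate 3 (-0.90, adjusted p = 0.031), Aplnr without 8 d replicate 3 (-0.98, 0.047) or 14 d replicate 2 (-1.12, 0.019), and Cd93 without 8 d replicate 2 (-0.45, 0.025). Aplnr was also called by DESeq2 (adjusted p = 0.026) and with no filter (0.047).

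Levels of different genes were compared per kilobase of merged exon (RPKM, with GENCODE M21 lengths). Without irradiation the order was Plvap (208 ± 14.3 RPKM, SD, n = 3), Car4 (201 ± 6.31), Gpihbp1 (105 ± 10.7), Cd93 (62.6 ± 3.44), Tbx2 (38.0 ± 2.03), Fibin (28.5 ± 6.13), Glp1r (10.4 ± 2.60), Apln (9.32 ± 1.32) and Aplnr (7.25 ± 1.11). Plvap and Car4 overlapped between libraries, as did Glp1r with Apln and Apln with Aplnr. At 8 d Apln (26.1 ± 4.99 RPKM) had moved from the eighth to the fourth place, overlapping Tbx2 (24.2 ± 1.29), while Gpihbp1 (22.8 ± 5.26) had moved from the third to the sixth. At 14 d Plvap (39.8 ± 6.40), Car4 (34.4 ± 7.15) and Cd93 (32.9 ± 2.73) overlapped at the top and Glp1r (0.785 ± 0.101) was last, below all values of Aplnr (1.66 ± 0.657).

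The question of whether the members moved with endothelium in general was addressed by scaling each library to 12 pan-endothelial genes (such as Pecam1, Cdh5, Tie1 and Erg) in place of all genes. Of these 12 genes 5 fell at 8 d, 9 at 11 d and 12 at 14 d under the usual scaling, with medians of -0.43, -0.77 and -1.58. Under that scaling 10.6%, 17.8% and 18.9% of all genes were called lower. The panel scaling moves the median of all genes to 0.40, 0.79 and 1.51, so values below are changes relative to the panel and not to the tissue. They describe RNA of bulk tissue and not levels per cell.

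Relative to the panel, Apln was higher by nearly the same amount at each time. Its level divided by the geometric mean of the panel was 0.158, 0.134 and 0.188 in the unirradiated libraries. It was 0.493, 0.651 and 0.595 at 8 d, 0.628, 0.521 and 0.580 at 11 d, and 0.549, 0.559 and 0.623 at 14 d. All 9 irradiated libraries lay above the unirradiated ones and the 3 times overlapped. The log2 change relative to the panel was 1.86 at 8 d (SE 0.19, adjusted p = 8.3e-07), 1.85 at 11 d (SE 0.19, adjusted p = 1.9e-07) and 1.85 at 14 d (SE 0.19, adjusted p = 5.2e-08), which corresponds to 3.63-, 3.61- and 3.61-fold. In this scaling 28.3%, 64.4% and 89.3% of all genes were called higher, so at 11 d and 14 d a call in this direction is the common case.

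Falls beyond the geometric mean of the panel were rarer, with 2.49%, 2.35% and 1.24% of all genes called lower at 8, 11 and 14 d. At these times 5, 6 and 5 of the 9 members were among them. Fibin (-1.91, -1.39 and -1.46), Gpihbp1 (-1.82, -0.95 and -1.03), Plvap (-0.62, -0.72 and -0.87) and Glp1r (-1.34, -1.70 and -2.23) were lower at all 3 times. Glp1r was thus at 0.214-fold its unirradiated level relative to the panel at 14 d (SE of the log2 change 0.27, adjusted p = 2.8e-07). The call of Plvap at 8 d (adjusted p = 0.042) was lost without any 1 unirradiated replicate, without 8 d replicate 2 or 3 or 11 d replicate 2 (adjusted p = 0.051 to 0.17), and with scaling to Pecam1, Cdh5 and Erg alone (-0.33, adjusted p = 0.21). At 11 d its call was lost with that same scaling (-0.47, adjusted p = 0.068). Under the usual scaling, Plvap at 8 d (-1.02) and Tbx2 at 11 d (-1.24) lay close to the lowest panel gene of that time (-0.93 and -1.19).

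Car4 did not differ from the panel by the test at 8 d and 11 d and was lower than it at 14 d. Its ratio to the panel was 2.24, 2.08 and 2.10 without irradiation, 1.88, 1.88 and 1.74 at 8 d, 2.40, 2.98 and 1.91 at 11 d, and 0.893, 1.16 and 1.04 at 14 d. The log2 change relative to the panel was -0.22 at 8 d (SE 0.19, adjusted p = 0.38), 0.18 at 11 d (SE 0.19, adjusted p = 0.40) and -1.06 at 14 d (SE 0.19, adjusted p = 3.7e-05). The 8 d libraries lay below the unirradiated ones without passing the test, and the 14 d libraries lay below those of every other group. With scaling to Pecam1, Cdh5 and Erg alone, the change of Car4 was 0.06 at 8 d, and at 11 d it was 0.43 and was called higher (adjusted p = 0.049).

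Aplnr was lower than the panel at 8 d (-0.93, SE 0.30, adjusted p = 0.024) and 11 d (-1.23, SE 0.30, adjusted p = 0.0015), and at 14 d its change of -0.63 (SE 0.30, adjusted p = 0.055) did not pass. The 8 d call of Aplnr was lost without unirradiated replicate 3 (-0.78, adjusted p = 0.084), without 8 d replicate 3 (-0.76, adjusted p = 0.10) and with scaling to Pecam1, Cdh5 and Erg alone (-0.63, adjusted p = 0.072). With a replicate block its 14 d change was -0.71 (adjusted p = 0.023), and it also passed without 8 d replicate 1 or 2, 11 d replicate 1 or 3, or 14 d replicate 2 (adjusted p = 0.021 to 0.049). Tbx2 was called lower at 11 d only (-0.47, SE 0.17, adjusted p = 0.022), which was lost without unirradiated replicate 1 (-0.41, adjusted p = 0.09) and with the 3-gene scaling (-0.22, adjusted p = 0.22). The change of Cd93 was -0.21 at 8 d and 0.04 at 11 d, neither called. It was higher than the geometric mean of the panel at 14 d (0.58, SE 0.20, adjusted p = 0.011), a call lost without 14 d replicate 1 (0.48, adjusted p = 0.054). Under the usual scaling, however, the 14 d change of Cd93 (-0.93) lay within the range of the panel genes (-2.05 to -0.74). Its ratio was 2.45, 2.18 and 2.19 without irradiation and 3.83, 3.41 and 2.93 at 14 d. Beside this stands the rise of the monocyte and neutrophil markers given above.

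**Figure D3:**
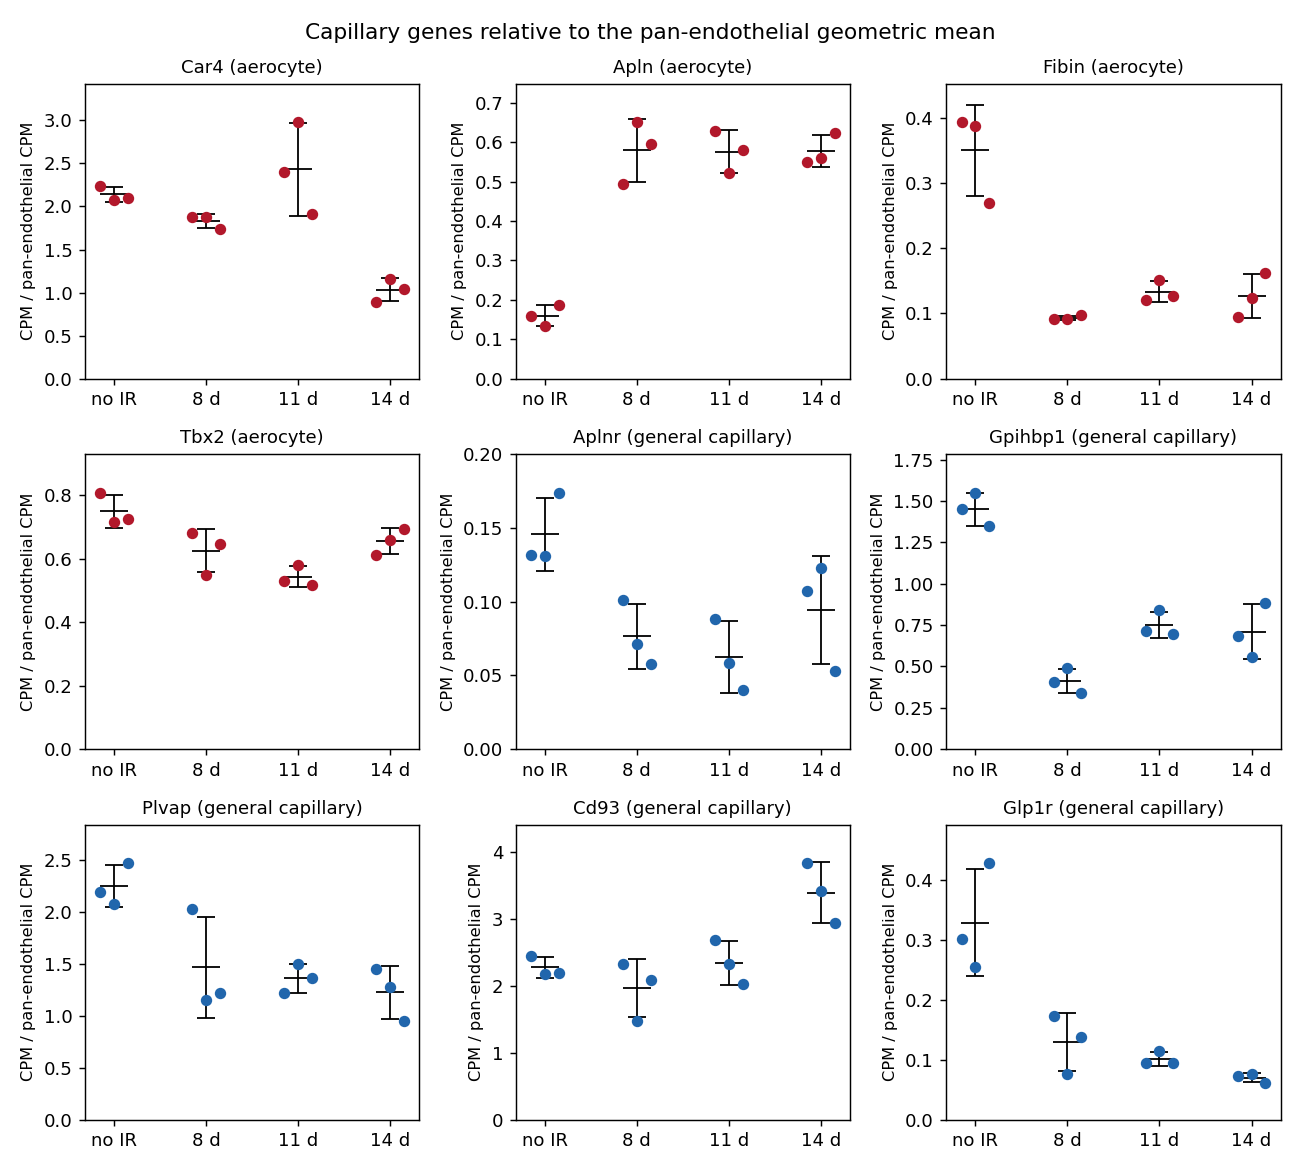
CPM of each gene divided by the geometric mean CPM of 12 pan-endothelial genes in the same library (linear axis from 0); points are libraries, bars the mean ± SD over 3. Apln lies at 0.493 to 0.651 in all 9 irradiated libraries against 0.134 to 0.188 without irradiation, and Car4 is lowest at 14 d (0.893 to 1.16), with its 8 d libraries (1.74 to 1.88) also below the unirradiated ones.

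Further markers of the same cell types were read from lists of genes that are not members. Of 9 tested aerocyte markers 6 fell at 8 d, 8 at 11 d and 9 at 14 d and none rose, with median log2 changes of -0.59, -0.95 and -1.43. Among all genes tested, 10.6%, 17.8% and 18.9% were called lower at these times. Ednrb, an endothelin receptor, fell from 91.4 to 18.7, 17.7 and 8.57 CPM at 8, 11 and 14 d (log2 change -3.41 at 14 d, SE 0.27, adjusted p = 5.2e-07). Cyp4b1, a cytochrome P450, fell from 572 to 199, 166 and 78.2 CPM (-2.87 at 14 d, SE 0.27, adjusted p = 2e-06), and it is also made by airway cells. Emp2, a membrane protein shared with alveolar type 1 cells, fell from 1590 to 875, 894 and 654 CPM (-1.29 at 14 d, SE 0.13, adjusted p = 2.8e-06). Rprml had too few counts to be tested.

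All 6 general capillary markers outside the members fell at each time, with medians of -0.95, -1.33 and -2.05, where 10.6%, 17.8% and 18.9% of all genes were called lower. Kit, the receptor for stem cell factor, fell from 188 to 48.6, 38.9 and 35 CPM (-2.43 at 14 d, SE 0.15, adjusted p = 1.5e-07). Its ligand gene Kitl, which aerocytes express, fell from 224 to 162 CPM at 8 d (-0.47, SE 0.15, adjusted p = 0.033) and to 83.3 CPM at 14 d (-1.43, SE 0.15, adjusted p = 4.3e-06). Unlike Apln and Aplnr, this ligand and receptor pair was thus lower on both sides. Ptprb, a phosphatase of the endothelial junction, fell from 1150 to 334 CPM at 8 d (-1.78, SE 0.22, adjusted p = 7.3e-05) and 232 CPM at 14 d (-2.31, SE 0.23, adjusted p = 2.5e-06). Sema3c, a secreted guidance factor, fell from 679 to 414 CPM at 8 d (-0.71, SE 0.14, adjusted p = 0.0026) and 167 CPM at 14 d (-2.03, SE 0.15, adjusted p = 3.4e-07).

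Apln is also a gene of sprouting tip cells and of capillaries after injury, so other genes of those states were read beside it. Of 9 such genes 1 rose and 4 fell at 8 d, 1 rose and 3 fell at 11 d, and 2 rose and 3 fell at 14 d. Their medians were -0.41, -0.28 and -0.22. Over all genes, 13%, 19.4% and 20% were called higher and 10.6%, 17.8% and 18.9% lower. The counts of rises are thus near the share of all genes. Pgf, a growth factor of the VEGF family, rose from 3.12 to 8.71 CPM at 8 d (1.48, SE 0.24, adjusted p = 0.00056), 7.06 at 11 d and 5.96 at 14 d. Cxcr4, a chemokine receptor shared with leukocytes, rose at 14 d (0.66, SE 0.17, adjusted p = 0.0068). The tip cell genes Esm1, which fell from 28.7 to 7.86 CPM at 8 d (-1.87, SE 0.21, adjusted p = 3.9e-05), and Dll4, a Notch ligand that fell from 60.9 to 7.69 CPM at 14 d (-2.98, SE 0.20, adjusted p = 1.8e-07), went against Apln. Nid2, a basement membrane protein, fell as well (-0.43 at 8 d, SE 0.14, adjusted p = 0.047). Angpt2 and Sparcl1 were not called at any of the 3 times.

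**Figure D4:**
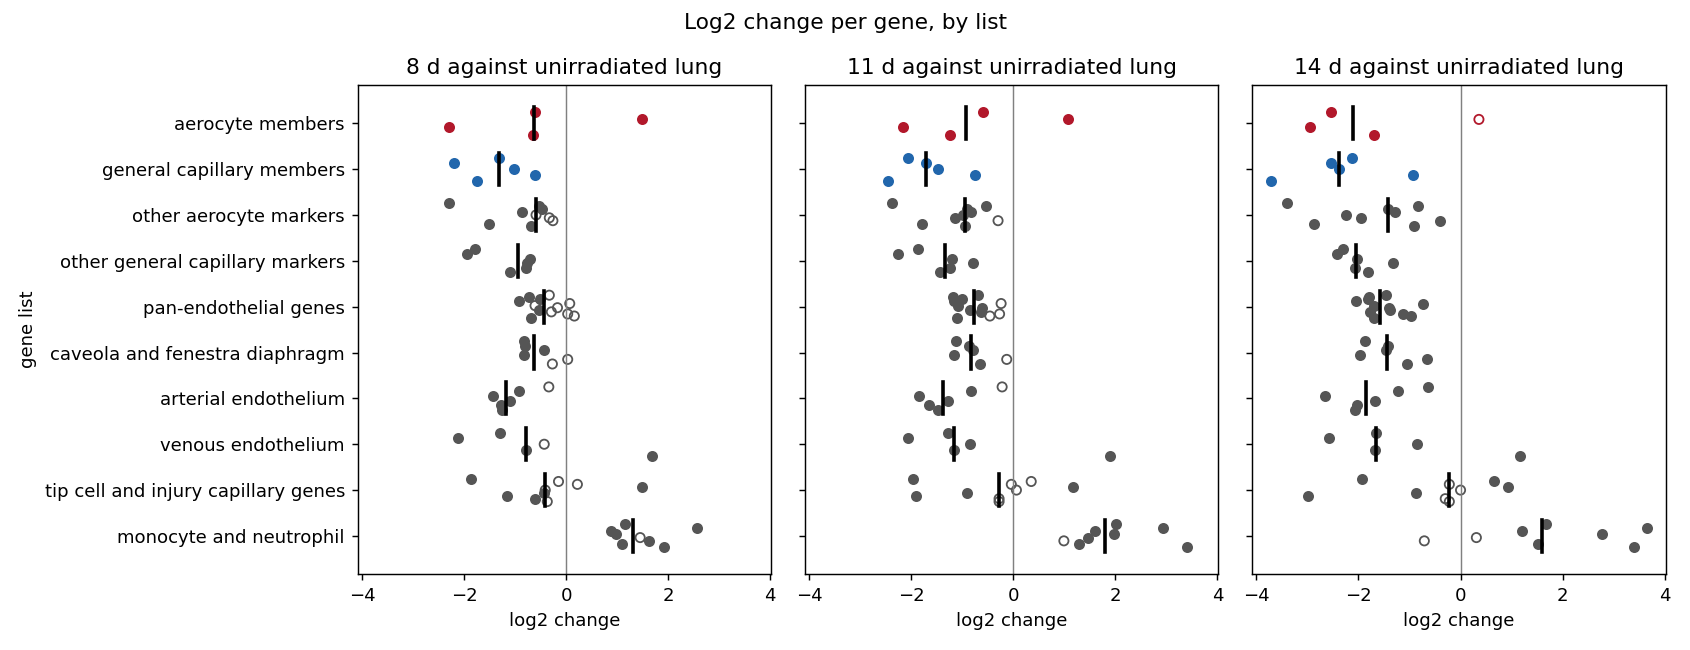
Log2 change of each gene against unirradiated lung at 8, 11 and 14 d, 1 row per list; filled points were called, open points were not, and black bars are medians. General capillary genes and the other markers of that type lie below 0 at each time, Apln stands apart from the other aerocyte genes at 8 d (1.48), and monocyte and neutrophil markers lie mostly above 0.

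The courses of the members across the 12 libraries were compared by Pearson's r of log2(CPM + 1), as a description, since the libraries share depth and tissue make-up. Glp1r and Plvap were the closest pair (r = 0.979), followed by Gpihbp1 and Fibin (r = 0.974), which belong to different sets. Apln had r between -0.504 and 0.129 with the other 8. Over the 9 irradiated libraries alone, Apln had r of 0.892 with Tbx2, 0.870 with Car4, 0.804 with Glp1r, 0.788 with Fibin and 0.770 with Plvap. Its values were lower with Gpihbp1 (0.541), Cd93 (0.452) and Aplnr (0.410). The other aerocyte genes were thus among the highest, with the general capillary gene Glp1r above Fibin and Plvap close below it. Gpihbp1 and Aplnr, which had r = 0.774 over all 12 libraries, had r = -0.211 over the 9 irradiated ones.

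Among the 12028 genes whose mean level reached 5 CPM, those most like Apln were Cxcl1 (r = 0.956), a neutrophil chemokine, Zfp365 (0.956) and the cyclin gene Ccnd1 (0.950). Those most like Car4 were Dynll2, Cdc42ep2 and Nkain4 (0.950 to 0.959). Gpihbp1 was most like Acer2 (0.983), Tmeff1 (0.981) and Cd36 (0.974), and Fibin most like B4galt4 (0.990), Lepr (0.989) and Jam2 (0.989). Glp1r was most like Pitpnc1, Bmp6 and Phactr2 (0.988 to 0.989), and Plvap most like Impdh1 (0.993), Adgrf5 (0.989) and Ushbp1 (0.987). Tbx2 was most like Tppp (0.991), Mapk12 (0.988) and Syde1 (0.987). Cd93 was most like Pdzd2 (0.991), Sipa1l2 (0.989) and Unc13b (0.989). For Aplnr the highest values were lower, with Tmem44 (0.964), Syt15 (0.964) and Sox11 (0.958).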

How the data were processed

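The values are the counts per gene symbol that the authors deposited, in 12 tables of 23282 lines. TopHat and the mm10 build are named in the submitters' processing notes. The sources used here name no TopHat version, counting program, annotation or setting for strand. Libraries were prepared with the NEBNext Ultra II Directional kit (1.3 µg of total RNA), per the labels' protocols. Any symbol found on more than 1 line (35 symbols, 79 lines) was summed. The exons of the members overlap no other gene of GENCODE M21, the source of coordinates and exon lengths. Groups were compared with edgeR 4.0.16 in R 4.3.3 (quasi-likelihood F test, all 12 samples, default expression filter, TMM scaling, 16484 genes tested), after a test on simulated data. SE was derived from the F statistic (log2 change over root F), and values after ± are SD. CPM use the scaled library sizes. The panel fit replaced TMM by the geometric mean of 12 pan-endothelial genes. Alternatives were other scalings and filters, a replicate block, DESeq2 1.42.0, limma 3.58.1 (voom), fits restricted to the compared groups, removal of Rn45s and haemoglobin genes, and each library left out. The members and lists were chosen with earlier results of these data known. Named are the 9 members, the 3 genes most like each, up to 3 genes per list with the lowest joint p and members called against their list; other list genes (Lpl, Kitl, Pgf, Cxcr4, Angpt2, Sparcl1, Apela, Rprml and Vwf) were named after their values were seen. Replicate numbers were not taken as pairs, and no replicate pair agreed within sampling noise. One gene of the apelin list is not reported here.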

Additional observations from a re-analysis of the deposited data

Results flagged for a closer look

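The change against unirradiated lung differed between times for 5 of the 9 genes, by the test of one irradiated time against the other. From 8 d to 14 d the log2 difference was -1.94 for Car4, -1.12 for Apln, -1.03 for Tbx2, -1.37 for Plvap and -1.97 for Glp1r. From 11 d to 14 d it was -1.94 for Car4, -0.90 for Plvap and -1.25 for Glp1r. Each is an edgeR estimate with 3 libraries per group, in which all 14 d libraries lay below all libraries of the earlier time. At 14 d, 7.29% of all genes tested were called lower than at 8 d, and 0.983% lower than at 11 d. With 1 library left out, the call against 11 d was lost in 9 of 12 fits for Plvap and 5 for Glp1r.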

How the results depend on the processing

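Of 1512 recomputed log2 changes of the members, 1429 kept their direction and side of the threshold, 38 lost the call, 32 gained it and 13 reversed, and of 440 recomputed counts 42 moved by over 1.5 times. At all 3 times the 5 general capillary genes were called lower than in unirradiated lung under each alternative run. The cause was not tested for the values below. For Car4 between 8 d and 11 d (0.01), the change was -0.09 with library size alone, -0.01 with a replicate block, -0.02 with voom and -0.20 to 0.14 with 1 library left out. For Aplnr between 11 d and 14 d (-0.06), it was -0.38 to 0.20 with 1 library left out. Scaled to Pecam1, Cdh5 and Erg alone, the 8 d changes were 0.06 for Car4, 0.02 for Tbx2 and 0.06 for Cd93, and the 14 d change of Tbx2 was 0.09. For Cd93 relative to the panel at 11 d, leaving out 1 library gave -0.07 to 0.14.

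From 8 d to 11 d, 0 aerocyte genes were called, and 1 with library size alone, no filter or DESeq2. From 11 d to 14 d, 1 aerocyte gene was called, 2 with no filter or a replicate block and 3 with DESeq2, and 2 general capillary genes were called, 1 with library size alone, a replicate block, voom or only the groups compared. Over all genes, edgeR called 353 genes between 8 d and 11 d (DESeq2 868) and 296 genes between 11 d and 14 d (DESeq2 827), and 143 from 8 d to 11 d in the fit of only the groups compared. With 1 library left out, all-gene counts were 2593 to 3997 at 8 d, 2 to 545 from 8 d to 11 d, 13 to 681 from 11 d to 14 d and 1392 to 2599 from 8 d to 14 d. The lowest came without unirradiated replicate 1, 8 d replicate 3, 14 d replicate 1 and 14 d replicate 1 in that order. Member counts were 0 to 1 aerocyte and 0 to 1 general capillary genes from 8 d to 11 d, 1 to 4 and 0 to 3 from 11 d to 14 d, and 3 to 4 and 2 to 3 from 8 d to 14 d, and 4 to 6 members relative to the panel at 8 d.

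Replicate numbers are shared by the groups, but 6 of 18 same-numbered pairs had deviations correlated above 0.1 (-0.479 to 0.401), so they were not taken as pairs. Between unirradiated and 8 d libraries, same-numbered pairs had r of 0.192, 0.148 and 0.162, and the other pairs -0.106 to -0.0359. Whether these groups were paired was not tested. A replicate block gave 3704, 5921 and 6288 genes against unirradiated lung in place of 3891, 6132 and 6408. Counting noise limits Glp1r and Aplnr most, with 94 to 139 counts of Glp1r per 14 d library.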

Other observations

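Markers of larger vessels fell as well. Of 6 arterial genes 5 were lower at 8 d and 11 d and all 6 at 14 d, and none was higher, with medians of -1.18, -1.38 and -1.84. Among all genes tested, 10.6%, 17.8% and 18.9% were called lower at these times. Hey1, a transcription factor downstream of Notch, fell from 53.9 to 12.9 CPM at 14 d (log2 change -2.06, SE 0.15, edgeR adjusted p = 3.4e-07), Sox17, an arterial transcription factor, from 18.8 to 4.65 CPM (-2.02, SE 0.16, adjusted p = 4.4e-07) and Efnb2, the arterial ephrin ligand, from 228 to 36.1 CPM (-2.66, SE 0.20, adjusted p = 3.4e-07).

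Of 5 tested venous genes 3 were lower at 8 d and 4 at 11 d and 14 d, and 1 was higher at each time. Slc6a2, the noradrenaline transporter, fell from 58.7 to 9.79 CPM at 14 d (-2.58, SE 0.26, adjusted p = 3.1e-06), Ephb4, the receptor of ephrin B2, from 128 to 40.1 CPM (-1.68, SE 0.17, adjusted p = 3.6e-06) and Vwf, the clotting factor carrier, from 396 to 126 CPM (-1.65, SE 0.24, adjusted p = 7.8e-05). Selp, the adhesion receptor P-selectin that platelets also carry, was the one that rose, from 3.12 to 10.1 CPM at 8 d (1.69, SE 0.19, adjusted p = 4.3e-05) and 11.6 CPM at 11 d (1.90, SE 0.19, adjusted p = 6.7e-06). Of 6 lymphatic genes 1 was lower at 8 d, 4 lower and 1 higher at 11 d, and 3 lower at 14 d. Over all genes, 10.6%, 17.8% and 18.9% were called lower at these times and 13%, 19.4% and 20% higher. The count of 1 venous gene called higher at each time is thus near the share of all genes. The same holds for the single lymphatic calls at 8 d and in the higher direction at 11 d.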
